A study of Mus musculus with 2 samples.

Results

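Ccl3, Ccl4, Ccl5 and Xcl1 are 4 chemokine genes that activated and tissue-resident T cells are known to transcribe. They were chosen by symbol from the 55357 genes counted, with no threshold on their values, and all 4 were detected in both libraries and passed the filter on low counts described below. The study pretreated dendritic cells with phages of SAP mice or of healthy mice and cultured them with T cells taken from the gut of GF mice. FucoID, a proximity reaction that places a fucosyl-biotin tag on the surface of a T cell in contact with a dendritic cell, was used so that contacted T cells could be separated from bystanders. The groups are SAP with 1 library and Control with 1 library, both labelled mouse ileum T cells; the sources used here do not state strain, genotype, age, sex, culture time or the number of pooled animals. The labels do not spell out the abbreviation SAP, do not tie Control in words to the phages of healthy mice, and do not say which sorted fraction was loaded. With 1 library per group, the group, the mice and the 10x run cannot be told apart and no test between groups is possible: intervals below are 95% and cover counting error only.

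Chemokines are small secreted proteins that guide cells through G protein-coupled receptors. CCL3, CCL4 and CCL5 belong to the CC family and draw effector T cells, macrophages and dendritic cells; CCL3 and CCL5 bind the receptor CCR1. XCL1, or lymphotactin, has its own receptor, XCR1, which marks cross-presenting dendritic cells. Memory CD8 T cells are known to keep a store of Ccl5 transcript, whereas Ccl3, Ccl4 and Xcl1 are known as genes switched on rapidly after receptor stimulation.

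Of the genes, 3 lie on chromosome 11 and 1 on chromosome 1 (GENCODE M21, build GRCm38, the same build series as the mm10 named for the counts). Ccl5 (ENSMUSG00000035042) lies at chr11:83525778-83530518 on the minus strand, Ccl3 (ENSMUSG00000000982) at chr11:83647844-83649355 on the minus strand and Ccl4 (ENSMUSG00000018930) at chr11:83662584-83664683 on the plus strand. Xcl1 (ENSMUSG00000026573) lies at chr1:164931644-164935527 on the minus strand. Each gene has 3 exons, 13228 bases separate Ccl3 from Ccl4, and 117325 bases separate Ccl5 from Ccl3. A RefSeq model of Ccl4 reaches across Ccl3 on the opposite strand. The sources used here do not state the strand setting of the counting. Whether this overlap had a part in the Ccl3 or Ccl4 counts was not tested.

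Promoter windows of 2 members, from 250 bases before to 50 bases after the gene start, were held by RefSeq (GRCm38.p6); those of the other members are not shown. Capitals mark TTTCC, the reverse complement of GGAAA, the core that NFAT factors bind; bases run 5′ to 3′ on the gene's strand. The Ccl3 window is chr11:83649329-83649628 and the Xcl1 window chr1:164935473-164935772.
Ccl3: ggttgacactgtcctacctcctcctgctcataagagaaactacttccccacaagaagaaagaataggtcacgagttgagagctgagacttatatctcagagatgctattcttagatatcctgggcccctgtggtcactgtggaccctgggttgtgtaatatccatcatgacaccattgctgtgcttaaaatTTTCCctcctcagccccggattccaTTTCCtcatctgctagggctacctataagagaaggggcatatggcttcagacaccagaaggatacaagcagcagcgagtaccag
Xcl1: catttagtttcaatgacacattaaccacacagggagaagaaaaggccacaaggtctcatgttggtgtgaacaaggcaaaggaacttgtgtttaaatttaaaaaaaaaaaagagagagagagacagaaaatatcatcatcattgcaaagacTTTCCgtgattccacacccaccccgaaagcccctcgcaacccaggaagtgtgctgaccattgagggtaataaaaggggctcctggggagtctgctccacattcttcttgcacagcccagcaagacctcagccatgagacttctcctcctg
The Ccl3 window holds 2 matches, at -59 and -34, and the Xcl1 window holds 1, at -100. These positions count from the RefSeq gene start of each window, which differs from the GENCODE gene start given above. Such a match, on either strand, is present in 61.3% of 32851 promoter windows of the same length. Both strands were also searched for the TATA box TATAAA, which gave 0 matches in both windows and occurs in 13.6% of all windows. The AP-1 motif TGANTCA gave 0 matches too and occurs in 7.81% of windows, and the short form of the CRE, TGACG, gave 0 matches and occurs in 20.8%.

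The transcripts of Ccl3, Ccl4 and Xcl1, but not that of Ccl5, contain TATTTAT, the core of the AU-rich element through which Zfp36-family proteins are known to shorten mRNA life. The motif was chosen after values were seen, so that the choice fixes how it divides the 4 genes, and its sites are shown as a description of the transcripts. Capitals mark the motif in windows of 30 bases of the GENCODE M21 transcript, bases 579 to 608 of Ccl3, 519 to 548 of Ccl4 and 494 to 523 of Xcl1.
Ccl3: gtatttgtgacTATTTATtctgaaagactt
Ccl4: attatttctatTATTTATgttttagttata
Xcl1: ttataagtaataaaTATTTATtattgatga
Among 8889 protein-coding transcripts of 500 to 800 bases, 3.25% hold the motif, and the 532 bases of the Ccl5 transcript hold 0 matches.

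The SAP library held 5203 barcodes and 19144320 UMIs and the Control library 5737 barcodes and 19142384 UMIs, with 6 barcode sequences found in both. After filters, 4681 SAP cells (97.0% of those retained) and 5291 Control cells (97.8%) had at least 2 UMIs over 10 T cell receptor and CD3 genes, all 10 of which were detected; they are called T-gated cells. Within the T gate, 30 SAP cells and 12 Control cells of great depth carried at least 2 UMIs of Folr1, a folate receptor gene, and held 5.40% and 2.42% of all T-gated UMIs. The markers of other cells summed to 87.7 CPM, UMIs of a gene scaled to 1e6 UMIs of the same cells, in SAP and 97.4 CPM in Control for 10 of 10 dendritic and myeloid genes, to 12.5 and 12.02 CPM for 6 of 6 NK and innate lymphoid genes, and to 82.7 and 82.5 CPM for 6 of 6 epithelial genes. The 7 of 7 B and plasma cell markers summed to 49.4 CPM in SAP and 862 CPM in Control, of which Igkc gave 4.56 and 753 CPM. The part of these cells in the results was not tested.

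Ccl5 was carried by almost every T-gated cell of both libraries, Ccl4 and Ccl3 by a minority, and Xcl1 by the fewest. At full depth, 97.3% of SAP cells and 97.9% of Control cells had a Ccl5 UMI, with medians of 94 and 99 UMIs per cell. Ccl4 was detected in 42.7% of SAP and 42.3% of Control cells, and Ccl3 in 25.3% and 25.1%. Xcl1 was detected in 15.6% of SAP and 13.8% of Control cells. Depth sets part of these shares: once each cell was thinned to 1000 UMIs, 25.4% of SAP and 26.6% of Control cells had Ccl4, 12.1% and 13.1% had Ccl3, and 9.104% and 8.998% had Xcl1. Thinning left out 397 SAP and 412 Control cells that were shallower.

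Free RNA from broken cells gives UMIs of an abundant gene to any droplet, so the same values were taken in the 41 SAP and 22 Control cells outside the T gate that had at least 1000 UMIs, with a median depth of 2745 and 1903 UMIs, against 3421 and 3135 in T-gated cells. A Ccl5 UMI was found in 78.0% of those SAP cells and 72.7% of those Control cells, but at 490 CPM (435 to 550) and 655 CPM (534 to 796), against 30955 CPM in SAP and 35068 CPM in Control T-gated cells. That pooled level weights each cell by its depth; with every cell thinned to 1000 UMIs, Ccl5 stood at 2854 and 1818 CPM outside the gate, against 32651 CPM in SAP and 36263 CPM in Control T-gated cells. A bare Ccl5 UMI was thus common outside the T gate too, and the level of Ccl5 is used below in place of its share. Ccl4 was found in 14.6% and 9.09% of these outside cells and Ccl3 in 12.2% and 4.55%. Xcl1 was found in 1 of 41 SAP cells (2.44%) and in 0 of 22 Control cells, which allows a share of up to 13.6%; such a limit is taken as 3 counts of the total. Of all 56 SAP and 25 Control Folr1 cells, 30 and 12 were T-gated and the others lay outside the gate. The Folr1 cells and the outside cells therefore overlap, and the former are not a separate background. Of the Folr1 cells, 87.5% in SAP and 80.0% in Control had a Ccl5 UMI, at 497 and 647 CPM.

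The chemokine levels of the SAP and Control libraries lay close together. Ccl3 stood at 174 CPM (168 to 180) in SAP and 191 CPM (185 to 198) in Control, a SAP over Control ratio of 0.911 (0.867 to 0.957). Ccl4 stood at 622 CPM (610 to 634) in SAP and 638 CPM (626 to 650) in Control, a ratio of 0.975 (0.950 to 1.0015). Ccl5 stood at 30955 CPM (30872 to 31038) in SAP and 35068 CPM (34981 to 35156) in Control, a ratio of 0.883 (0.879 to 0.886). Xcl1 stood at 233 CPM (225 to 240) in SAP and 222 CPM (215 to 229) in Control, a ratio of 1.05 (1.005 to 1.10). Of the 4 members 0 reached 1.5-fold and 0 reached 1.2-fold in either direction. Of the 5634 genes that passed the filter, 3.41% were at least 1.5-fold apart and 12.6% at least 1.2-fold. With 4 genes, a count of 0 does not set the members apart from these shares. Both shares count the Folr1 cells, and the 1.2-fold share without them is not given here. Leaving out the Folr1 cells brought the 1.5-fold count over all genes to 15 of 5472, or 0.274%, against 192 with them, and moved the ratios to 0.939 for Ccl3, 1.01 for Ccl4, 0.910 for Ccl5 and 1.08 for Xcl1.

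Scaling by TMM factors moved the median log2 ratio of all genes by -0.10, so the members are also given relative to that median, which no scaling changes. On that log2 scale Ccl3 was at -0.18, Ccl4 at -0.09, Ccl5 at -0.23 and Xcl1 at 0.02, and without the Folr1 cells at -0.15, -0.05, -0.19 and 0.06. Xcl1 alone was above the median of all genes, and its plain ratio changed side with the scaling, being 0.977 with TMM and 0.993 with median-of-ratios factors. No second library exists against which the spread between samples could be set.

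The other chemokine ligand genes listed stood below the 4 members in these cells. Of 37 chemokine ligand genes listed, 21 were detected and 5 passed the filter, namely the 4 members and Cxcl10, a ligand of CXCR3, at 38.0 CPM in SAP and 47.5 CPM in Control (ratio 0.7999). The 5 had a median log2 ratio of -0.13, against 0.05 over all genes. Of the 5, 1, Cxcl10, was at least 1.2-fold apart, against 12.6% of all genes, both with the Folr1 cells counted. Ccl25, an epithelial chemokine that draws Ccr9-bearing cells to the small intestine, gave 285 UMIs in SAP and 308 in Control. Ccl27a gave 119 and 116, Ccl20 gave 20 and 61, and Cxcl2, a neutrophil attractant, 19 and 58.

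Among receptor genes, Ccrl2, a chemokine-binding receptor, stood at 39.5 CPM in SAP and 38.1 CPM in Control. Ccr1 gave 49 UMIs in SAP and 50 in Control, Ccr3 gave 1 and 3, and Ackr1 and Ackr2, scavenging receptors, gave 0 in both. Xcr1, the receptor of XCL1 and a marker of dendritic cells, gave 18 and 19 UMIs. Of 24 genes listed as regulators of chemokine transcription, mRNA decay or release, 22 passed, with a median log2 ratio of -0.03. With the Folr1 cells counted, 1 was at least 1.2-fold apart, against 12.6% of all genes. Zfp36, which binds AU-rich elements, had 262 CPM in SAP and 245 CPM in Control.

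Gates on lineage genes divided the T-gated cells into exclusive classes. The Trdc gate, cells with the delta chain of the γδ receptor, held 1602 SAP and 1753 Control cells. The Cd8b1 gate, cells with the CD8β chain found on conventional CD8 T cells, held 543 and 538, and the gate on Cd8a without Cd8b1, a form typical of intraepithelial lymphocytes, held 1186 and 1444. The Cd4 gate held 165 and 186 cells, and 1185 and 1370 cells were ungated. Ungated cells were shallower, with median depths of 2531 UMIs in SAP and 2558 UMIs in Control, against 3814 and 3504 in the Trdc gate. Dropout of the gating gene sends cells of any class to the ungated cells. Cells with some Trdc, but less than the Trdc gate required, could not enter the Trdc or Cd8a gate. The Cd8a gate rests on the absence of Cd8b1 and Trdc UMIs, so dropout of either can place conventional CD8 or γδ cells in it. The gates are therefore not pure lineages, and the share of misplaced cells was not tested.

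Ccl5 was high in all CD8 and γδ classes and several-fold lower in the Cd4 gate. In the Trdc gate it stood at 36723 CPM in SAP and 40330 CPM in Control, in the Cd8b1 gate at 31257 and 35301 CPM, and in the Cd8a gate without Cd8b1 at 35247 and 40543 CPM. In the Cd4 gate it stood at 6227 CPM in SAP and 6637 CPM in Control, and in ungated cells at 20307 and 24868 CPM. The Trdc gate exceeded the Cd4 gate 5.90-fold in SAP (5.72 to 6.09) and 6.08-fold in Control (5.90 to 6.26), and in both libraries the Cd8b1 gate lay below the Trdc gate and the Cd8a gate. The Trdc and Cd8a gates did not keep 1 order with the Folr1 cells counted. Without those cells the Trdc gate was slightly below the Cd8a gate, at 36723 against 37332 CPM in SAP and 40330 against 41453 CPM in Control. In thinned cells with the Folr1 cells counted, the Trdc and Cd8a gates were level, with overlapping intervals. The thinned values were 36874 and 36841 CPM in SAP and 40748 and 40697 CPM in Control. No order of the Trdc and Cd8a gates is therefore drawn.

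Within the Cd4 gate, Ccl5 was carried by a subset of cells rather than evenly at a lower level. The median cell there had 4 Ccl5 UMIs in SAP and 4 in Control, near the medians of 6 and 1 in cells outside the T gate. Cells with at least 10 Ccl5 UMIs made up 31.5% of the Cd4 gate in SAP and 39.2% in Control, against 92.2% and 95.04% of the Trdc gate. The top 10% of Cd4-gate cells held 65.4% of that gate's Ccl5 UMIs in SAP and 53.2% in Control, against 25.8% and 26.0% in the Trdc gate.

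Ccl4 was likewise lowest in the Cd4 gate, and the Trdc and Cd8b1 gates exceeded the Cd8a gate without Cd8b1 in both libraries. The Trdc gate had 751 CPM in SAP and 733 CPM in Control, the Cd8b1 gate 755 and 958 CPM, and the Cd8a gate 562 and 517 CPM. Ungated cells had 488 and 545 CPM. The Cd4 gate had 131 CPM (104 to 162) in SAP and 281 CPM (243 to 323) in Control, but 1 Control cell held 58.9% of that gate's Ccl4 UMIs, and without the top cell of each library the values were 79.0 and 116 CPM. The Trdc gate exceeded the Cd4 gate 5.75-fold in SAP and 2.61-fold in Control, and 3.95-fold and 1.32-fold with 2 UMIs required of every gate gene; in thinned cells the ratios were 3.56 and 1.85. The order of the Trdc and Cd8b1 gates was not the same in both libraries.

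Ccl3 followed the same division between CD8 or γδ cells and CD4 cells. It stood at 205 CPM in SAP and 251 CPM in Control in the Trdc gate, at 209 and 172 CPM in the Cd8b1 gate, and at 199 and 186 CPM in the Cd8a gate without Cd8b1. In the Cd4 gate it stood at 37.8 CPM (24.2 to 56.2) from 24 UMIs in SAP and at 12.8 CPM (5.86 to 24.3) from 9 UMIs in Control. Outside the T gate Ccl3 stood at 28.9 CPM in SAP, where 1 cell held 58.8% of its UMIs, and at 6.49 CPM from 1 UMI in Control. In thinned cells the Cd4 gate had 51.6 CPM in SAP and 16.9 CPM in Control, against 146 and 45.5 CPM outside the T gate, each of the last 2 from 1 cell, so a Cd4-gate level above background was not detectable at this depth. The first 3 gates had no order shared by both libraries.

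For Xcl1 the Cd4 gate was not below the CD8 and γδ gates in both libraries, as it was for the 3 CC chemokines. It stood at 256 CPM in SAP and 301 CPM in Control in the Trdc gate, at 181 and 155 CPM in the Cd8b1 gate, at 209 and 175 CPM in the Cd8a gate without Cd8b1, and at 246 and 195 CPM in ungated cells. The Cd4 gate had 247 CPM (210 to 289) in SAP, within the interval of the Trdc gate, and 137 CPM (111 to 167) in Control. The Trdc gate exceeded the Cd8b1 gate 1.41-fold in SAP and 1.95-fold in Control, and the Cd8a gate 1.22-fold and 1.72-fold. The share of thinned cells with an Xcl1 UMI differed less. In SAP it was 8.68% in the Trdc gate, 8.37% in the Cd8b1 gate and 8.18% in the Cd8a gate. In Control it was 9.19%, 8.33% and 9.06%. In the Trdc gate 1 cell held 9.25% of Xcl1 UMIs in SAP and 7.83% in Control. Without each gate's top cell the Trdc gate stood at 233 CPM in SAP and 278 CPM in Control. The Cd8b1 gate then stood at 137 and 131 CPM, and the Cd8a gate at 191 and 162 CPM. The Trdc gate stood 1.04-fold over the Cd4 gate in SAP and 2.20-fold over it in Control. With 2 UMIs required of every gate gene the SAP ratio was 2.68. An Xcl1 UMI was found in 16 of 155 thinned SAP cells (10.3%) and 13 of 178 thinned Control cells (7.30%) of the Cd4 gate. Outside the T gate it was found in 0 of 41 thinned SAP cells, which allows up to 7.32%, and in 0 of 22 thinned Control cells, which allows up to 13.6%.

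**Figure D1:**
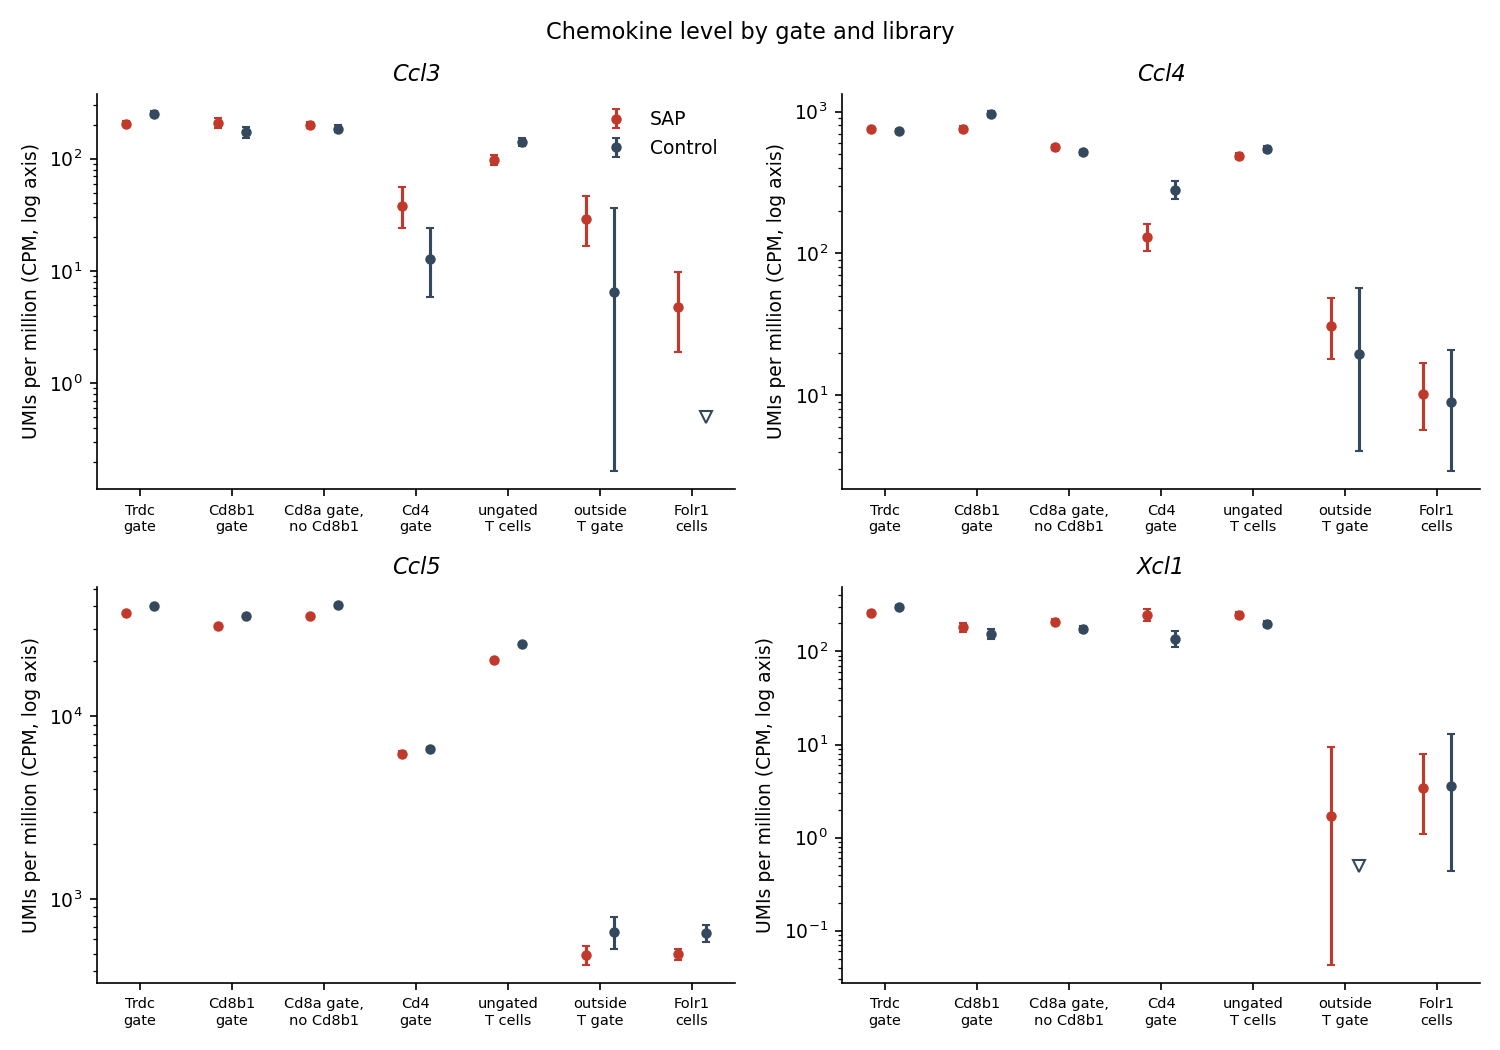
Level of each chemokine gene in CPM (log axis) by gate, with SAP in red left of Control in dark blue, 1 library each; bars are 95% counting intervals and open triangles mark 0 UMIs. Ccl3, Ccl4 and Ccl5 are lowest in the Cd4 gate among the gated T cells, while Xcl1 in the Cd4 gate stands at 247 CPM in SAP and 137 CPM in Control.

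Across gates the SAP over Control ratio of Ccl5 was below 1 throughout, and that of the other genes was not of one sign. The Ccl5 ratio was 0.911 in the Trdc gate, 0.885 in the Cd8b1 gate, 0.869 in the Cd8a gate, 0.938 in the Cd4 gate and 0.817 in ungated cells. Without the Folr1 cells the Ccl5 ratios lay closer together, at 0.911, 0.901, 0.901, 0.943 and 0.899 in the same order. The Xcl1 ratio was 0.849 (0.795 to 0.908) in the Trdc gate, against 1.17 (1.001 to 1.37) in the Cd8b1 gate and 1.19 (1.09 to 1.31) in the Cd8a gate. It was 1.81 (1.39 to 2.35) in the Cd4 gate and 1.26 (1.14 to 1.38) in ungated cells. In thinned cells the Xcl1 ratios were 0.936, 1.05, 1.17, 1.75 and 1.19 in the same order. In the Cd8b1 gate 1 SAP cell held 24.7% of the Xcl1 UMIs, and without the top 1% of cells the ratio was 0.900. The Ccl3 ratio was 0.816 in the Trdc gate, 1.21 in the Cd8b1 gate, 1.07 in the Cd8a gate, 0.690 (0.604 to 0.788) in ungated cells and 2.95 (1.32 to 7.20) in the Cd4 gate, the last from 24 SAP and 9 Control UMIs. Without the top 1% of cells the Cd8a ratio was 0.941. The Ccl4 ratio was 1.03 in the Trdc gate, 0.788 in the Cd8b1 gate, 1.09 in the Cd8a gate, 0.896 in ungated cells and 0.465 (0.356 to 0.604) in the Cd4 gate, where it was 0.682 without the top cell of each library. In ungated cells without the Folr1 cells, the ratio was 0.757 for Ccl3, 0.987 for Ccl4 and 1.39 for Xcl1. Whether these ratios differ between gates was not tested.

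**Figure D2:**
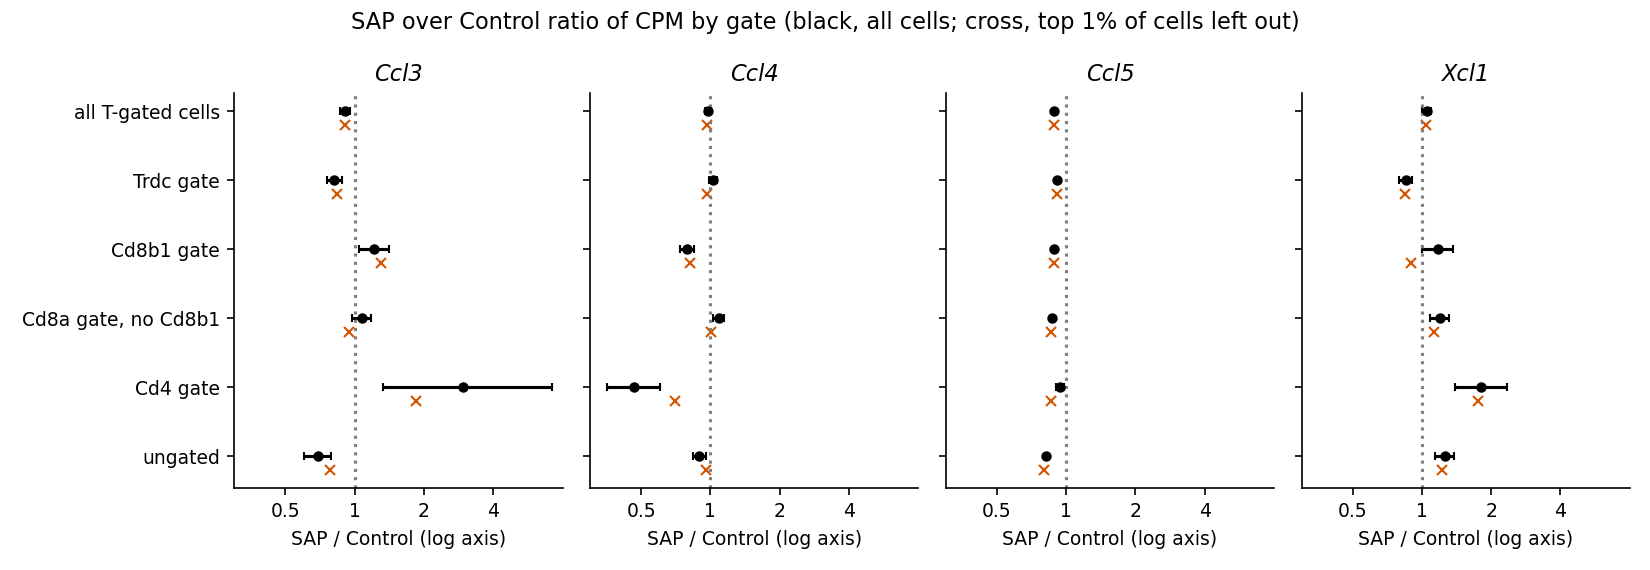
SAP over Control ratio of CPM (log axis) of each gene in all T-gated cells and in each gate; black points have 95% counting intervals, orange crosses leave out the top 1% of cells for that gene, and the dotted line is 1. Ccl5 lies left of 1 in every class, from 0.817 to 0.938, and Xcl1 lies left of 1 in the Trdc gate (0.849) and right of it in the Cd4 gate (1.81). Without the Folr1 cells the Ccl5 ratios ran from 0.899 to 0.943.

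The genes differed in how evenly cells shared their UMIs. The top 1% of T-gated cells held 42.6% of Xcl1 UMIs in SAP and 42.2% in Control. They held 24.4% and 23.9% of Ccl3 UMIs, 23.9% and 22.9% of Ccl4 UMIs, and 4.96% and 4.97% of Ccl5 UMIs. The top 10% of cells held 93.5% and 94.8% of Xcl1, 73.9% and 73.4% of Ccl3, 71.9% and 71.0% of Ccl4, and 30.05% and 29.46% of Ccl5. The number of cells that together held 50% of the UMIs was 68 of 4681 in SAP and 75 of 5291 in Control for Xcl1, 180 and 212 for Ccl3, 186 and 211 for Ccl4, and 957 and 1127 for Ccl5. The highest cells had 151 Xcl1 UMIs in SAP and 150 in Control, 133 and 155 of Ccl4, 49 and 69 of Ccl3, and 806 and 1081 of Ccl5. Mean UMIs per cell differed too, at 114 in SAP and 117 in Control for Ccl5 and 2.30 and 2.13 for Ccl4. They were 0.860 and 0.738 for Xcl1 and 0.644 and 0.637 for Ccl3. The part of the mean count in the shares held by the top cells was not tested.

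**Figure D3:**
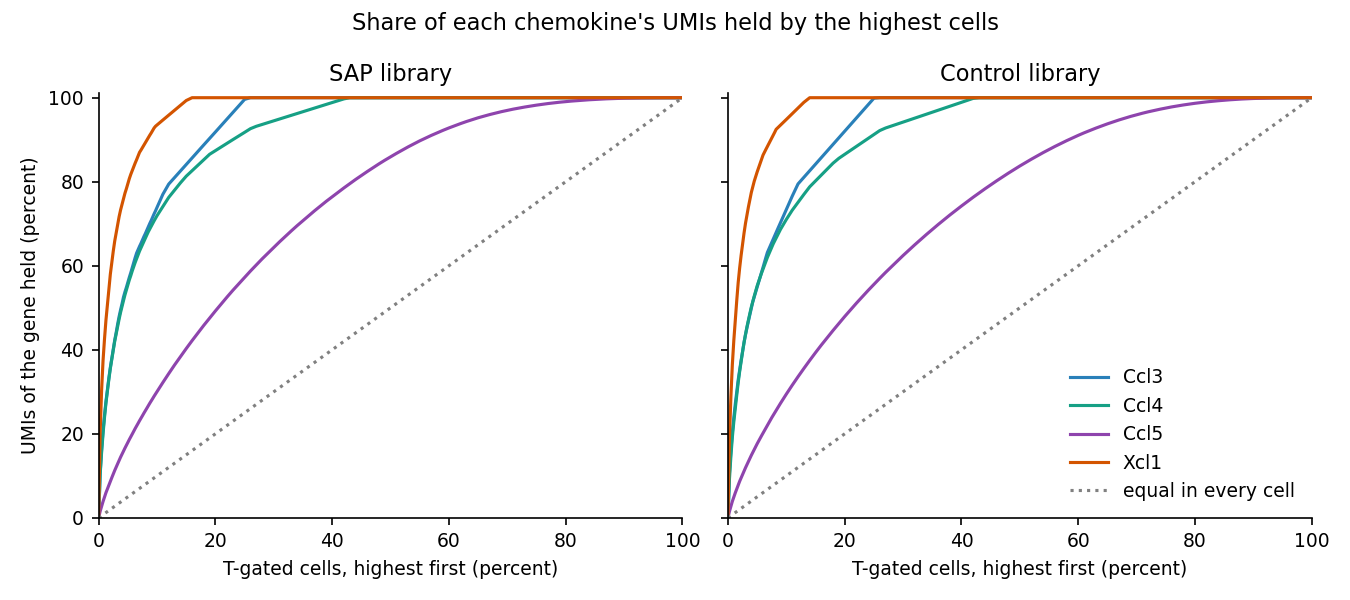
Percent of each gene's UMIs (y) held by the highest T-gated cells (x, percent of cells), SAP left and Control right; the dotted line is an equal level in every cell. At the top 10% of cells the Xcl1 curve is at 93.5% in SAP and 94.8% in Control, the Ccl4 curve at 71.9% and 71.0%, and the Ccl5 curve at 30.05% and 29.46%.

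At equal depth, Ccl3 was found more often in cells with Ccl4 than in cells without it. Among cells thinned to 1000 UMIs, Ccl3 was found in 23.9% of SAP cells with Ccl4 (260 of 1090; 21.4 to 26.5) and in 8.14% of those without it. In Control the shares were 24.9% (323 of 1297; 22.6 to 27.4) and 8.77%. The shares with Ccl4 exceeded those without it in each gate, at 26.0% and 8.92% in the SAP Trdc gate, 28.6% and 10.5% in the Control Trdc gate, 22.0% and 9.07% in the SAP Cd8b1 gate, and 21.2% and 7.80% in the Control Cd8b1 gate; in the Cd4 gate they rest on 2 SAP and 1 Control cells with both genes. Ccl3 without Ccl4 was found in 260 SAP and 314 Control cells, and Ccl4 without Ccl3 in 830 and 974. Read the other way, 50% of Ccl3-positive cells had Ccl4 in SAP and 50.7% in Control. Pearson's r between the 2 genes over thinned cells was 0.29 in SAP (4284 cells) and 0.25 in Control (4879 cells), a description of cells that share a library.

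Xcl1 was found less often in cells with Ccl4 or Ccl3 than in cells without them. Among thinned cells with Ccl4, 5.32% had Xcl1 in SAP and 6.71% in Control, against 10.4% and 9.83% of cells without Ccl4. Among cells with Ccl3 the shares were 5.19% and 6.91%, against 9.64% and 9.31% without it. In the Trdc gate Xcl1 was in 4.73% of SAP and 4.63% of Control cells with Ccl4 and in 10.1% and 11.2% of cells without. In the Control Cd8b1 and Cd8a gates the shares were level, at 8.24% with Ccl4 and 8.38% without, and 9.52% with and 8.91% without. All 3 genes together were found in 17 of 4284 SAP cells and 23 of 4879 Control cells, Xcl1 alone of the 3 in 322 and 331 cells, and none of the 3 in 61.0% and 60.2% of cells.

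Cells with Ccl5 at different levels carried different partners. Among thinned cells with 0 to 2 Ccl5 UMIs, 1.89% had Ccl4 in SAP and 2.45% in Control, and with 30 to 59 Ccl5 UMIs 31.8% and 31.9% had it. Ccl3 was found in 1.26% and 0.891% of cells with 0 to 2 Ccl5 UMIs and in 15.6% and 16.3% of cells with 30 to 59. Both shares were level above that, with 32.1% and 32.5% for Ccl4 at 60 or more Ccl5 UMIs. Xcl1 ran the other way. It was found in 28.7% (24.2 to 33.5) of SAP and 33.1% (28.2 to 38.4) of Control cells with 3 to 9 Ccl5 UMIs, and in 1.002% and 1.376% of cells with 60 or more. In cells with 0 to 2 Ccl5 UMIs Xcl1 was found in 17.4% and 15.1%, so its share was highest at a low Ccl5 level and not at the lowest.

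**Figure D4:**
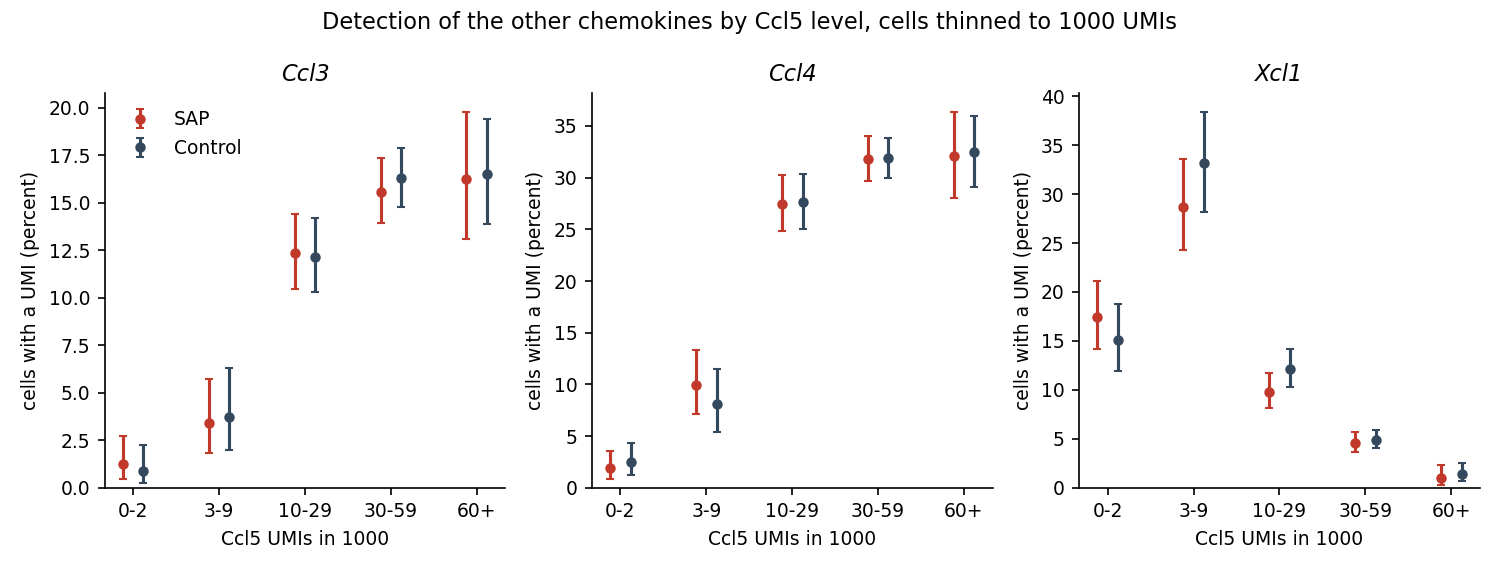
Percent of T-gated cells with a UMI of Ccl3, Ccl4 or Xcl1 (y) by Ccl5 UMIs in the same cell (x), all cells thinned to 1000 UMIs; SAP red, Control dark blue, bars 95% exact binomial intervals. Ccl3 and Ccl4 are found more often in cells with more Ccl5 and level off at 30 or more, while Xcl1 is highest at 3 to 9 Ccl5 UMIs, 28.7% in SAP and 33.1% in Control.

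The inverse relation of Xcl1 and Ccl5 was seen inside the lineage gates. In the Trdc gate, cells with Xcl1 had a median of 8.5 thinned Ccl5 UMIs in SAP (136 cells) and 11 in Control (157 cells), against 38 and 41 in cells without Xcl1. In the Cd8b1 gate the medians were 19 and 19 with Xcl1 and 32 and 35 without, and in the Cd8a gate 17 and 18 with it and 37 and 40 without. In the Cd4 gate the medians ran the other way, at 3 and 4 with Xcl1 and 1 and 1 without, from 16 SAP and 13 Control cells with Xcl1. Gzma, the granzyme A gene, had a median of 0 thinned UMIs in Trdc-gate cells with Xcl1 in both libraries, against 26 in SAP and 27 in Control cells without it. Cells that carried Ccl4 had more Ccl5 than those without it in the Trdc gate, with medians of 41 in SAP and 42 in Control against 34 and 37.

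For each gene, the 5 genes with the most similar level over T-gated cells were taken by Pearson's r of log values, using the lower of both libraries' r, among 5418 genes. Ccl5 was most like Gzma, with r of 0.76 in SAP and 0.76 in Control, then Gzmb (0.64 and 0.62), Nkg7, a granule protein gene (0.50 and 0.48), Cd7 and Cd3g. Ccl4 was most like Ccl3 (0.33 and 0.33), Ccl5, Gzmb, Gzma and Nkg7, and Ccl3 like Ccl4, Gzma, Ccl5, Gzmb and Klrd1, the CD94 gene. Xcl1 shared none of these partners: the 5 were Tcf7, the gene of the transcription factor TCF-1 kept by naive and memory T cells (0.22 and 0.20), Cd160, Nfkb1, Tmsb10 and Bend4. These r describe 4681 SAP and 5291 Control cells whose depth varies, and those of Xcl1 are weak; at equal depth the 5 held Cd160, Nfkb1 and Tmsb10 again but Tpt1 and Ltb in place of Tcf7 and Bend4, with r of at most 0.11 in SAP and 0.12 in Control.

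Cells with at least 3 UMIs of a gene after thinning were then set against cells with 0 of it. For Ccl3 these were 60 SAP and 86 Control cells, for Ccl4 331 and 357, and for Xcl1 99 and 118. The threshold marks a range and not a cell type: 79 SAP and 104 Control cells had 2 UMIs of Ccl3, 198 and 249 had 2 of Ccl4, and 78 and 81 had 2 of Xcl1, while 21 and 45, 107 and 109, and 42 and 51 had exactly 3. Depth before thinning was similar for Ccl4, with medians of 3304 UMIs in SAP and 2991 UMIs in Control high cells, against 3655 and 3340 in cells with 0, and somewhat greater in Xcl1-high cells, with 3903 and 3849, against 3560 and 3257.

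Ccl4-high cells carried more RNA of several early response genes. Of 24 activation genes measured, 3 had a ratio above 1.5 in both libraries and 2 were lower by the same factor, against 1.18% higher and 2.59% lower over the 6362 genes measured. Nfkbid, an inhibitor-like NF-κB regulator, stood at 163 CPM in SAP and 157 CPM in Control high cells, against 77.6 and 75.1 CPM in cells with 0 Ccl4. Jun stood at 1435 and 1255 CPM, against 786 and 736 CPM, and Fosb at 695 and 577 CPM, against 421 and 303 CPM; both encode subunits of AP-1. The lower ones, Icos and Tnfrsf4, encode costimulatory receptors and had at most 7 UMIs in the high cells of a library. Nr4a1, an early target of receptor signalling, stood below the 1.5-fold line, at 511 and 507 CPM, against 350 and 345 CPM.

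Among 13 effector genes measured in Ccl4-high cells, 1 was higher and 2 were lower by that factor in both libraries. The higher one was Ifng, the interferon-γ gene, at 384 CPM in SAP and 336 CPM in Control high cells, against 175 and 168 CPM, and it was found in 21.1% and 20.2% of high cells, against 10.6% and 10.0%. Ccl3 stood at 722 and 731 CPM, against 105 and 126 CPM. The lower effector genes were Ltb, at 109 and 101 CPM, against 171 and 183 CPM, and Il17a, at 0 UMIs in the high cells of both libraries. Tcf7 stood at 15.1 and 28.0 CPM, against 62.9 and 70.9 CPM.

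Ccl3-high cells were fewer and gave wider intervals. Of 24 activation genes, 6 were higher and 2 lower by 1.5-fold or more in both libraries, against 4.1% higher and 10.8% lower over 6609 genes. Ifng stood at 433 CPM in SAP and 500 CPM in Control high cells, against 187 and 182 CPM in cells with 0 Ccl3, and Egr1, an early response factor, at 550 and 628 CPM, against 278 and 278 CPM. Jun stood at 1983 and 1291 CPM, against 848 and 755 CPM, and Nfkbid at 200 and 174 CPM, against 81.6 and 73.8 CPM. Egr3 had the highest ratio of the activation and effector lists, 5.12 (1.34 to 14.0) in SAP and 4.86 (1.89 to 10.6) in Control, from 3.33% and 3.49% of high cells. Fos and Nr4a1 completed the 6, and the lower genes, Icos and Tnfrsf4, had 0 UMIs in the high cells of both libraries. The ratio intervals of Icos reached 1.21 in SAP and 1.06 in Control and those of Tnfrsf4 3.16 and 1.59, so that a lower level of either was not detectable at this depth. Ccl4 stood at 3900 and 3360 CPM, against 511 and 566 CPM.

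Xcl1-high cells were set apart by low effector RNA. Of 13 effector genes measured, 8 were lower and 2 higher by 1.5-fold or more in both libraries, against 14.2% lower and 3.08% higher over 6793 genes. Gzma stood at 5525 CPM in SAP and 4042 CPM in Control high cells, against 21216 and 22502 CPM in cells with 0 Xcl1, and Gzmb, the granzyme B gene, at 919 and 881 CPM, against 4153 and 4396 CPM. Ccl5 stood at 12263 and 14000 CPM, against 34321 and 37917 CPM. Ltb, the lymphotoxin β gene and 1 of the 2 that were higher, stood at 404 and 280 CPM, against 142 and 153 CPM; the other was Tnf, at 50.5 and 59.3 CPM from 5 and 7 UMIs, against 26.7 and 19.4 CPM, with a SAP ratio interval that held 1. The other lower effector genes were Fasl, Gzmk, Prf1, Spp1, Il17a and Tnfsf10, with at most 7 UMIs in the high cells of either library; of these, Fasl and Gzmk alone had intervals below 1 in both libraries.

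Of the activation genes, 6 of 24 were higher and 4 lower by 1.5-fold or more in Xcl1-high cells of both libraries. Cd160, a receptor of intraepithelial lymphocytes and NK cells, stood at 545 CPM in SAP and 551 CPM in Control high cells, against 206 and 172 CPM. Crtam, a receptor of activated CD8 and NKT cells, stood at 101 and 67.8 CPM, against 22.6 and 18.0 CPM, Myc at 70.7 and 50.8 CPM, against 19.3 and 13.3 CPM, and Egr3 at 50.5 and 59.3 CPM, against 13.61 and 15.99 CPM. Dusp2 and Fos completed the 6, and the lower genes, Ctla4, Icos, Irf8 and Tnfrsf4, had at most 10 UMIs in the high cells of a library. The intervals of Dusp2 and of these 4 held 1 in at least 1 library. Of 22 chemokine regulators measured, 3 were higher and 1, Irf8, was lower by that factor in both libraries, against 3.08% and 14.2% of all genes. The higher ones were Tcf7 at 121 and 246 CPM, against 44.7 and 48.4 CPM, Nfkb1 at 313 and 271 CPM, against 114 and 104 CPM, and Zfp36 at 525 and 500 CPM, against 256 and 241 CPM. Ifng did not share this direction, at 162 CPM in SAP and 254 CPM in Control, against 197 and 191 CPM. Kit, which encodes the receptor of stem cell factor and was named after its values were seen, stood at 162 and 237 CPM, against 69.6 and 82.0 CPM, while the other 4 mast cell and basophil markers were at 0 in high cells.

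**Figure D5:**
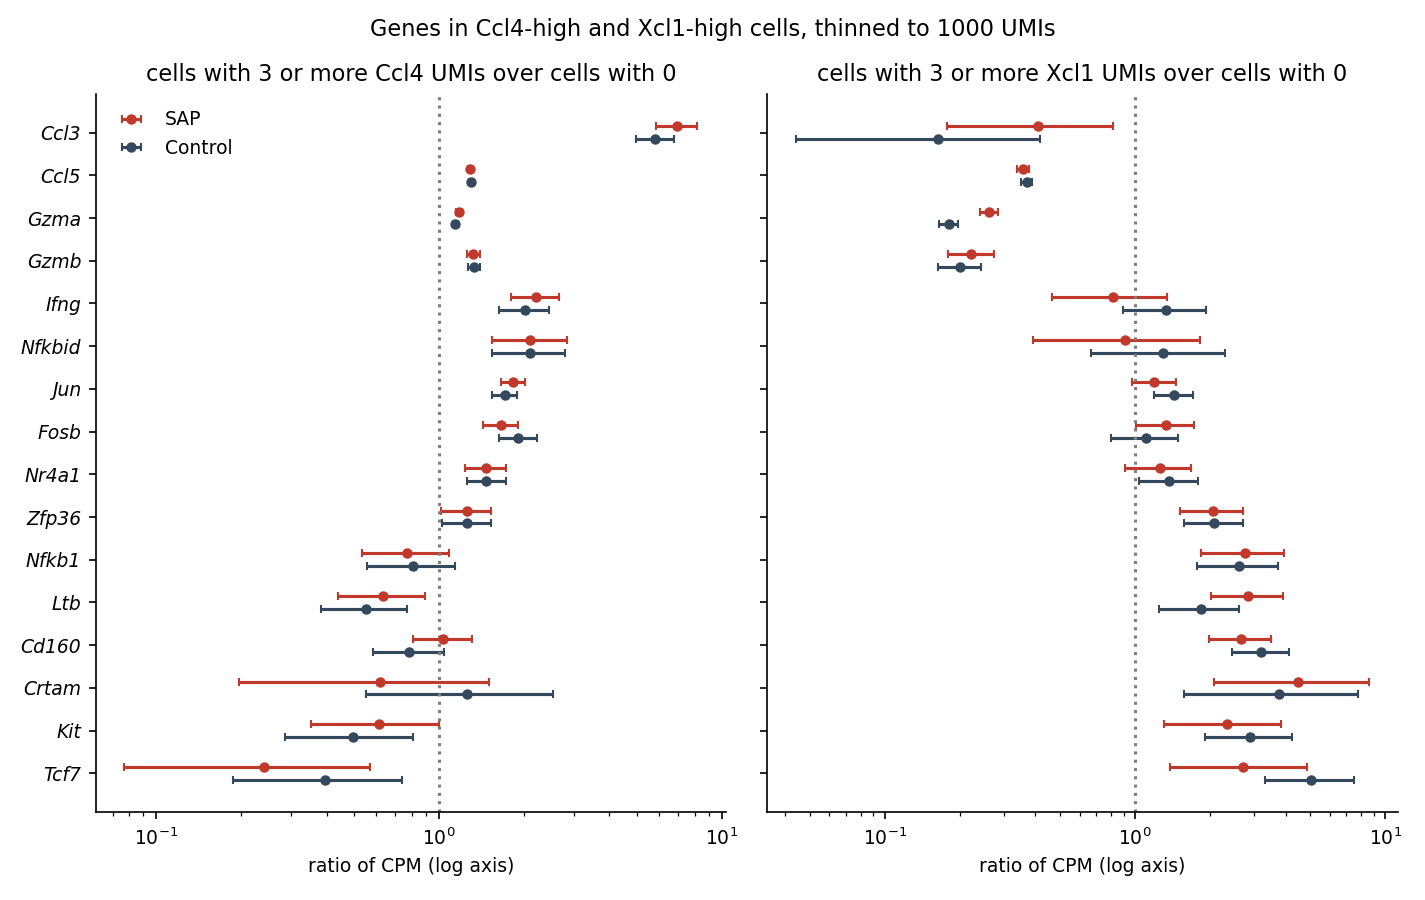
Ratio of CPM (log axis) in cells with at least 3 UMIs of Ccl4 (left) or Xcl1 (right) over cells with 0, thinned to 1000 UMIs; SAP red above Control dark blue, bars 95% counting intervals, dotted line 1. Ifng, Nfkbid, Jun and Fosb lie right of 1 in Ccl4-high cells, and in Xcl1-high cells Gzma, Gzmb and Ccl5 lie left of 1 and Tcf7, Kit, Crtam and Cd160 right of it in both libraries.

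By lineage gate, Xcl1-high cells were 47.5% Trdc-gated in SAP and 50% in Control, against 36.7% and 35.0% of cells with 0 Xcl1. Ccl4-high cells were 16.01% and 15.97% Cd8b1-gated, against 11.1% and 9.66%, and 1.21% and 1.68% Cd4-gated, against 4.51% and 4.55%. NK and innate lymphoid markers summed to 0 CPM in SAP and 59.3 CPM in Control Xcl1-high cells, against 12.84 and 11.04 CPM, with 6 of 6 and 5 of 6 of them at 0. T cell receptor and CD3 genes summed to 7808 and 7297 CPM in Xcl1-high cells, against 8214 and 8412 CPM, and 0 of the 10 was at least 1.5-fold apart.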

How the data were processed

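The authors deposited raw UMI counts per gene and barcode, without normalisation, and Cell Ranger 7.1.0 wrote them, per the file headers. Seurat and the build mm10 also appear in the submitters' processing notes. Libraries were made with the 10x 3' kit, version 3, per the labels' protocols. A barcode needed 500 UMIs or more, 300 genes or more and no more than 10% mitochondrial UMIs. The 202 SAP and 257 Control barcodes with the top Scrublet scores (scanpy 1.11.5; expected rate 0.8% per 1000 barcodes) were removed as doublets, because its automatic threshold marked 1 in each library.

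CPM are UMIs of a gene scaled to 1e6 UMIs of the same cells, summed over cells, with exact Poisson intervals; ratios have exact conditional binomial and shares Clopper-Pearson intervals, and the limit for a count of 0 is 3 counts of the total. A gene passed the filter with at least 20 CPM in 1 library and 50 UMIs over both. Gates required at least 2 UMIs of Trdc and 1 UMI of the other genes. The Trdc gate required Cd4 and Cd8b1 at 0, and the Cd8b1 gate Trdc and Cd4 at 0, so both left Cd8a free. The Cd8a gate required Cd8b1, Trdc and Cd4 at 0, and the Cd4 gate Cd8a, Cd8b1 and Trdc at 0. Thinning drew 1000 UMIs per cell without replacement, once, with a fixed seed. High cells were compared for genes with at least 50 summed UMIs in the high and 0 cells together.

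Similar genes had a UMI in at least 5% of cells of each library, without ribosomal, mitochondrial and unnamed genes; the genes named from the activation and effector lists are the 5 with the largest lower ratio of both libraries. The members and lists were chosen with earlier results of these data known. Ratio, thinning and correlation steps were tested on simulated data. Alternatives were TMM and median-of-ratios scaling, other filters, gates, depths and cells left out. No replicate could be left out. A receptor gene of the lists is not reported here.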

Additional observations from a re-analysis of the deposited data

How the results depend on the processing

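With 1 library per group the data limit every comparison of SAP with Control to counting error, and Cd4-gate values of Ccl3 and Ccl4 rest on few UMIs. No paired analysis was possible because each group has 1 library. Leaving out the Folr1 cells was chosen after seeing the data. Of 174 alternative values 121 stayed within the counting interval of the reported value or, for counts of genes, within 1.5 times it, 51 moved beyond that and 2 reversed; the causes were not tested except where a smaller cell set or fewer UMIs follows from the setting.

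TMM factors gave SAP over Control ratios of 0.848 for Ccl3, 0.908 for Ccl4, 0.822 for Ccl5 and 0.977 for Xcl1, and median-of-ratios factors 0.861, 0.922, 0.835 and 0.993; the Xcl1 ratio reversed under both. The Ccl4 ratio was 0.944 with no doublet removal and 1.01 without Folr1 cells. The Ccl5 ratio was 0.879 with the members out of the library sum, 0.889 at 5% mitochondrial UMIs, 0.863 with a T gate at 1 UMI, 0.861 with no T gate, 0.910 without Folr1 cells and 0.900 in thinned cells. The 192 genes at least 1.5-fold apart became 6369 with no filter on low counts, 286 with a T gate at 1 UMI, 309 with no T gate and 15 without Folr1 cells.

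The Trdc over Cd4 ratio of Ccl4 was 3.95 in SAP and 1.32 in Control with 2 UMIs required of each gate gene, and 3.56 and 1.85 in thinned cells. That of Ccl5 was 5.56 and 5.84 with 1 UMI, 5.70 and 5.01 with 2 UMIs, 4.49 and 4.58 in thinned cells, and 5.78 in Control with no doublet removal. That of Xcl1 was 2.68 in SAP with 2 UMIs, against 1.04 as reported.

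In thinned cells the top 10% held 88.7% of Ccl3 in SAP and 85.3% in Control, 74.5% and 73.4% of Ccl4, 23.7% and 22.9% of Ccl5 and 100% and 100% of Xcl1, where fewer cells than that have a UMI. At 5% mitochondrial UMIs the share was 70.9% for Ccl4 in SAP, 92.6% for Xcl1 in SAP, and 28.5% and 28.7% for Ccl5. For Ccl5 it was 29.8% in SAP with no doublet removal, 30.4% and 29.7% with a T gate at 1 UMI, and 30.7% and 29.9% with no T gate. Ccl3 among Ccl4 cells was 32.1% and 36.3% at 2000 UMIs and 12.5% and 12.9% with detection at 2 UMIs. Of the 5 genes most like Xcl1, 3 remained in thinned cells, and Tcf7 and Bend4 did not.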
